A study of Mus musculus with 33 samples.

Results

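Cells take iron up, store it, export it and sense it with a small set of proteins, and the mRNAs of 10 genes of that system were followed in the hypothalamus of ovariectomized mice. The genes were chosen by their known roles, with earlier results of these data known. They are Tfrc, Trf and Slc11a2 (uptake), Fth1 and Ftl1 (storage), Slc40a1 and Cp (export), Hmox1 (heme breakdown), and Ireb2 and Aco1 (sensing). They make up 10 of the 41565 named entries of the deposited table, and all 10 were above the filter on low values in both regions.

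The 33 bulk RNA-seq libraries were made from the posterior hypothalamus (PH, 16 libraries) and the preoptic area (POA, 17 libraries) of female C57BL/6 wild-type mice bred in house. Intact mice killed in diestrus (PH, n = 4; POA, n = 5) were compared with mice killed 14 days after bilateral ovariectomy (OVX, the surgical loss of ovarian hormones; n = 6 per region) and 4 months after OVX (n = 6 per region). OVX mice received an anesthetic and analgesics at surgery, and the titles of the control libraries read sham where another label and the study's methods read intact. The mice killed at 4 months were older than the intact mice, with no intact group of their age, so that time after OVX and age cannot be told apart. Each group was spread over 2 batches named in the labels, with 2 or 3 libraries in each. Whether a PH and a POA library came from 1 mouse is not labelled, and the labels do not say more of the replicates than their number, so P values measure the spread between these libraries.

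Transferrin, the product of Trf, carries ferric iron, and its receptor, the product of Tfrc, brings it into the cell. In the brain the receptor is known for its place on capillary endothelium and neurons, while oligodendrocytes are the main source of transferrin and hold much of the stored iron. Divalent metal transporter 1, from Slc11a2, passes iron out of the endosome into the cytosol, ferritin heavy and light chains from Fth1 and Ftl1 build the storage shell, and ferroportin from Slc40a1 is the exporter, helped by the ferroxidase ceruloplasmin from Cp. Heme oxygenase 1, from Hmox1, releases iron from heme. When iron is scarce, IRP1 (Aco1) and IRP2 (Ireb2) bind a hairpin called the iron-responsive element (IRE). In a 3′ UTR, as in Tfrc, the bound protein keeps the mRNA from decay, and in a 5′ UTR, as in the ferritins, it blocks translation. IRP control of the ferritins and ferroportin therefore acts largely on protein output, which mRNA levels do not show.

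Matches to an IRE pattern are shown because IREs are the sequences through which the 2 sensors act on other mRNAs of the set. The UTRs of protein-coding transcripts (GENCODE M39, GRCm39) were searched on the sense strand for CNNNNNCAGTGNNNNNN, in which the bases between the first C and CAGTGN had to pair with the last ones (Watson-Crick or G-U). On canonical transcripts alone, a match was found in 4 of the 10 genes and in 148 of 21593 canonical protein-coding transcripts of all genes (0.685%). The search of every coding transcript of the 10 genes added no gene to the 4. No match in the other genes says only that these letters with this full pairing are not in those UTRs. A hairpin with an unpaired base in this stem would not be found, in these or in the 4 genes. Capitals mark the 6-base loop. The 4 matches of Tfrc lie in its 3′ UTR on the + strand of chromosome 16 and are in 10 of its 12 coding transcripts.
Tfrc, chr16:32450037-32450065: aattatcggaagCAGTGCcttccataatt
Tfrc, chr16:32450416-32450444: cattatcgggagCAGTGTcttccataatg
Tfrc, chr16:32450481-32450509: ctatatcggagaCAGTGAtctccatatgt
Tfrc, chr16:32450528-32450556: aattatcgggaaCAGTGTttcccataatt

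Fth1, Ftl1 and Slc40a1 each carry 1 match in the 5′ UTR, and Cp, the other export gene, none. The match is in 17 of 18 coding transcripts of Fth1 (+ strand), 6 of 7 of Ftl1 (− strand) and 5 of 9 of Slc40a1 (− strand).
Fth1, chr19:9960096-9960124: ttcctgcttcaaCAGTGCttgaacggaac
Ftl1, chr7:45109203-45109231: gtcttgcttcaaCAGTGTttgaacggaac
Slc40a1, chr1:45964625-45964653: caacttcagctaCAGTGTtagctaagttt

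Levels are the deposited normalized signal on a linear scale, which is not a count. Genes without measurable expression sit at a floor of 22.1 in every library. The lowest value of any of the 10 genes was 6.30 times the floor (Hmox1), and the lowest Fth1 value was 2177 times. The read depth behind these values is unknown. The summed signal per library was 44.5 to 72.9 mega units of signal. Marker genes of the tissue were present, with 59 of 62 markers of 11 cell types at no less than 2 times the floor in every library. The exceptions are Lyve1, Kcne2 and Slc4a1. One PH library, replicate 5 at 14 days, stood apart on the surrogate variable SV1 (0.79, against −0.31 to 0.19 in the other PH libraries), and the correlations over all libraries named below that moved without it by 0.05 or more are given with and without it. In bulk tissue, fewer cells of a type and less RNA per cell cannot be told apart. Signal is not compared between PH and POA, because a component separating the regions appears to have been subtracted from the deposited values. Nor is it compared between genes, since it was not verified to be scaled by length.

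**Figure D1:**
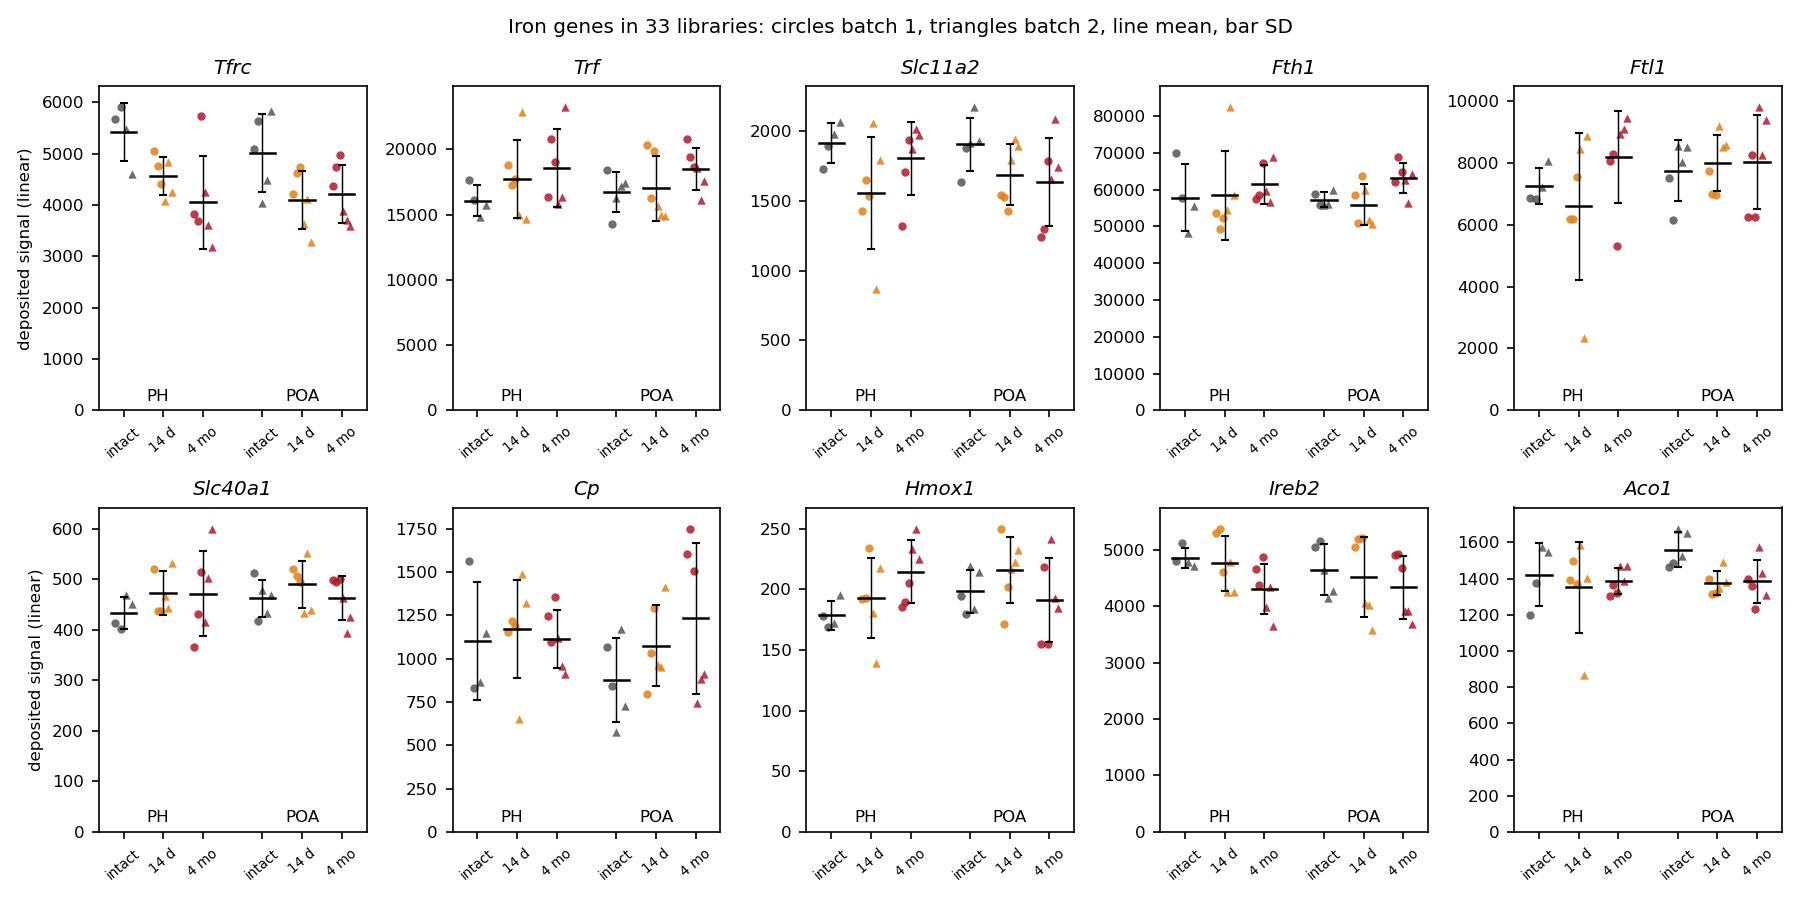
Deposited signal (linear scale, axis from 0) of the 10 iron genes in each of the 33 libraries, by region and time, with circles for batch 1, triangles for batch 2, a line at the group mean and a bar for the SD. The Tfrc means after OVX (4051 to 4567) are below the intact means (5018 and 5421), and PH replicate 5 at 14 days is the lowest point for Ftl1, Aco1, Slc11a2 and Hmox1 and the highest for Fth1.

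None of the 10 genes passed an adjusted P under 0.05 (limma with SV1, Benjamini-Hochberg over all genes tested) in any comparison. This was a setting in which few genes passed at all. The share of all genes called was 0% (PH) and 0.00469% (POA) at 14 days, 0.0319% (PH) and 0.0937% (POA) at 4 months, and 0.0091% (PH) and 0.0281% (POA) between the OVX times. At an unadjusted P under 0.05, the PH had 0 of the 10 genes higher and 1 lower at 14 days, and 1 higher and 1 lower at 4 months. Of all genes tested there, 1.56% were higher and 1.48% lower at 14 days, and 2.95% and 3.11% at 4 months. In the POA, 0 of the 10 genes were higher and 3 lower at 14 days, and 1 was higher and 4 lower at 4 months. The background shares were 2.84% and 3.3% at 14 days, and 4.1% and 4.41% at 4 months. Both OVX times of a region were compared with the same intact libraries, so their results are not independent. The POA count at 4 months, 5 genes, was 2 without replicate 6 at 4 months and 3 without either intact replicate 2 or replicate 2 at 4 months, and the PH count at 4 months, 2 genes, ran from 1 to 4 as single libraries were left out. Without SV1 as a covariate the counts were 0 and 1 in PH libraries and 2 and 2 in POA libraries at the early and the late time. In batch 1 alone the POA count at 14 days was 1, and in batch 2 alone also 1. At 4 months the POA had 3 higher and 1 lower in batch 1 alone, and 0 higher and 2 lower in batch 2 alone. With the replicate number as a block in place of SV1, the POA at 4 months had 2 higher and 2 lower. In both regions replicate 3 is in batch 2 among intact and in batch 1 among OVX libraries, so this block crosses the batches. The median log2 fold change of the 10 genes lay between −0.03 and 0.08 in the 6 comparisons, and that of all genes tested between −0.01 and −0.0018.

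**Figure D2:**
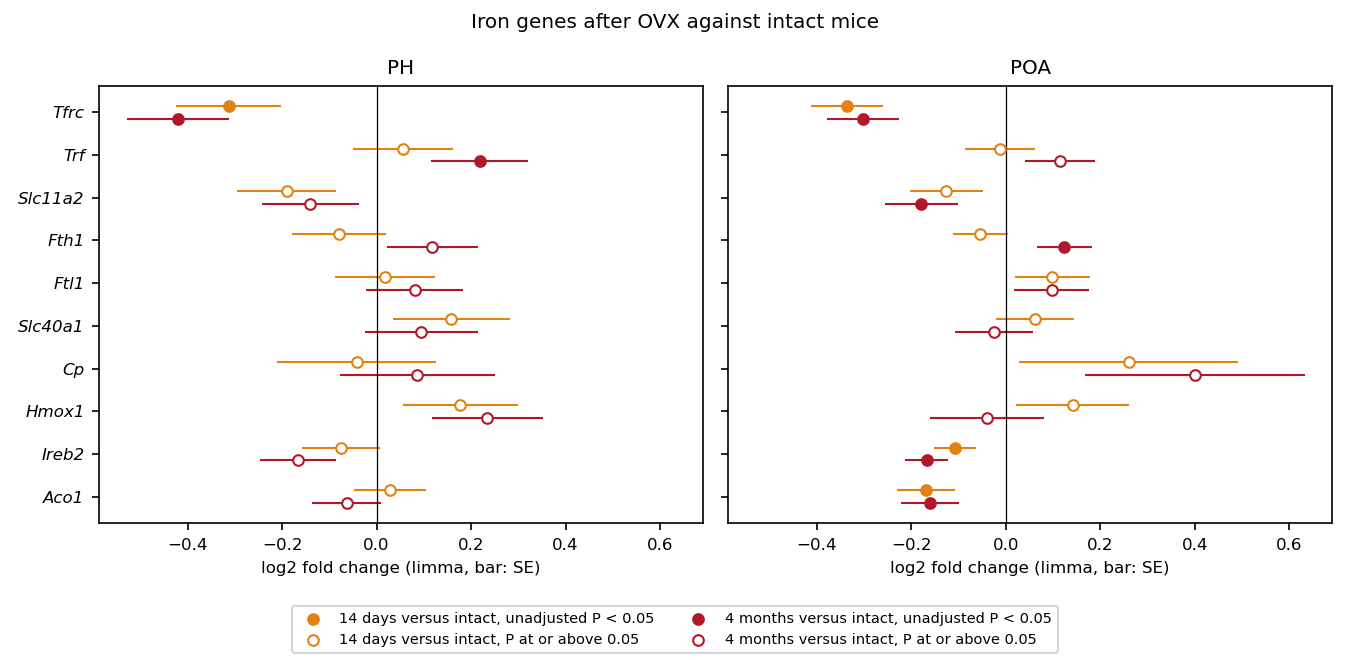
Log2 fold change (limma, with SV1) of each iron gene after OVX against intact mice, PH on the left and POA on the right, at 14 days (orange) and 4 months (red), with bars for the SE and filled points at an unadjusted P under 0.05. Tfrc is the only gene with filled points, all below 0, in all 4 comparisons with SV1 as the covariate, and no gene passed an adjusted P under 0.05.

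Tfrc, the transferrin receptor, had the lowest unadjusted P of the 10 genes in each comparison with intact mice, at 0.747 to 0.811 times the intact signal by the fitted fold change. In the PH, it measured 5683, 5907, 5482 and 4610 in the intact libraries. At 14 days it ran from 4088 to 5053 with a median of 4585, and at 4 months from 3176 to 5746 with a median of 3764. The groups overlapped: 3 of 6 libraries at 14 days and 5 of 6 at 4 months were below every intact library, and replicate 3 at 4 months, at 5746, lay among the highest intact ones. The log2 fold change was −0.31 (SE 0.11) at 14 days, with an unadjusted P of 0.0112 and an adjusted P of 1.00 (limma). At 4 months it was −0.42 (SE 0.11), with an unadjusted P of 9.9e-04 and an adjusted P of 0.349. Without replicate 3 at 4 months, it was −0.52 with an adjusted P of 0.0209, the only omission of a library under which any of the 10 genes passed. Without SV1 as a covariate, the unadjusted P was 0.0806 at 14 days and 0.00376 at 4 months. With the replicate number as a block in place of SV1 it was 0.183 at 14 days and 0.0126 at 4 months.

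Tfrc in the POA measured 5101, 5647, 4033, 4481 and 5830 in intact libraries. It ran from 3280 to 4737 with a median of 4166 at 14 days, and from 3595 to 4969 with a median of 4134 at 4 months. The ranges overlapped more than in the PH, with 2 and 3 of 6 OVX libraries below every intact one, but within each batch the mean of the OVX libraries was lower. The log2 fold change was −0.34 (SE 0.08) at 14 days (unadjusted P = 2.98e-04, adjusted P = 0.524, limma) and −0.30 (SE 0.08) at 4 months (unadjusted P = 8.34e-04, adjusted P = 0.199, limma). With the replicate number as a block in place of SV1, the unadjusted P was 0.0243 at 14 days and 0.055 at 4 months. By unadjusted P with SV1, Tfrc stood in positions 12 (14 days) and 88 (4 months) of the 21339 POA genes tested and in positions 107 and 62 of the 21966 PH genes. Within batches, the log2 difference from intact libraries at 4 months was −0.42 and −0.46 (PH) and −0.20 and −0.34 (POA). At 14 days it was −0.29 and −0.20 (PH) and −0.25 and −0.37 (POA).

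The 2 OVX times did not differ in Tfrc beyond their spread. The log2 difference of 4 months from 14 days was −0.11 (SE 0.10, unadjusted P = 0.304, limma) for PH libraries and 0.03 (SE 0.07, unadjusted P = 0.651, limma) for POA libraries. The order of the means was intact, 14 days, 4 months in the PH (5421 ± 568, 4567 ± 372 and 4051 ± 899, SD), whereas POA means ran intact, 4 months, 14 days (5018 ± 762, 4214 ± 568 and 4103 ± 563, SD).

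Marker lists of several cell types were set beside Tfrc. The mean log2 signal of 6 microglial markers ran from 10.17 to 10.19 in intact PH, from 10.16 to 10.41 at 14 days and from 10.27 to 10.55 at 4 months, and from 10.22 to 10.31, 10.33 to 10.46 and 10.28 to 10.53 in the POA. All 6 were on the higher side in each of the 4 comparisons, 0 at an adjusted P under 0.05, and at an unadjusted one 1 (PH, 14 days), 2 (PH, 4 months), 1 (POA, 14 days) and 4 (POA, 4 months). Across the 33 libraries, centred on region and batch, Tfrc and this list had a Pearson r of −0.69. The libraries share their groups, so this is a description. Endothelial markers, of the cells in which the receptor is best known, were on the higher side for 5 of 6 genes in every comparison, with median log2 fold changes of 0.26 and 0.28 (PH) and 0.06 and 0.15 (POA) at the early and the late time. Their mean log2 signal ran from 10.06 to 10.14 in intact PH and from 10.21 to 10.56 at 4 months, and from 10.12 to 10.23 and 10.15 to 10.51 in the same POA groups. Neuronal markers had median log2 fold changes between −0.05 and −0.03. The part of cell numbers in the Tfrc values was not tested.

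Trf, transferrin itself, was on the higher side at 4 months. In the PH it measured 17642, 16111, 14810 and 15726 in intact libraries, and ran from 14684 to 22824 with a median of 17511 at 14 days and from 15842 to 23227 with a median of 17684 at 4 months. At 4 months 3 of 6 libraries exceeded every intact one. The log2 fold change was 0.22 (SE 0.10) at 4 months in the PH, with an unadjusted P of 0.0478 and an adjusted P of 0.815 (limma). Without replicate 6 at 4 months, the highest Trf library, it was 0.13 with an unadjusted P of 0.106. In the POA, intact libraries had 18434, 14288, 16296, 17182 and 17458, against 14922 to 20355 with a median of 15970 at 14 days and 16090 to 20790 with a median of 18627 at 4 months. At 4 months 4 of 6 POA libraries exceeded every intact one, and at 14 days 2 did. The POA log2 fold changes were −0.01 (SE 0.07) at 14 days and 0.11 (SE 0.07, unadjusted P = 0.138, limma) at 4 months. Oligodendrocyte markers, of the cells that make most brain transferrin, were on the lower side of intact mice in the median at both times and in both regions (−0.14 to −0.11). At 4 months 3 of 10 were on the higher side in each region, and between the POA times 8 of 10 were. Over the 33 centred libraries, Trf had an r of 0.43 with this list (PH 0.28, POA 0.63), and of 0.50 without PH replicate 5 at 14 days. The part of these cells in the Trf values was not tested. The mean log2 signal of the 10 markers ran from 13.55 to 13.57 in intact PH, 13.37 to 13.51 at 14 days and 13.22 to 13.66 at 4 months, and in the same order from 13.45 to 13.85, 13.21 to 13.58 and 13.37 to 13.72 in POA libraries.

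Slc11a2, the endosomal iron transporter, measured 1724, 1892, 1976 and 2061 in intact PH, 869 to 2056 with a median of 1593 at 14 days, and 1321 to 2012 with a median of 1901 at 4 months. In the POA it measured 1630, 1878, 1912, 2169 and 1929 in intact libraries, 1425 to 1941 with a median of 1666 at 14 days, and 1241 to 2087 with a median of 1696 at 4 months. All groups overlapped, with at most 4 of 6 OVX libraries (PH, 14 days) below every intact one. Log2 fold changes were on the lower side in all 4 comparisons (−0.19 to −0.13). In the POA at 4 months it was −0.18 (SE 0.08), with an unadjusted P of 0.031 and an adjusted P of 0.522 (limma). The lowest value, 869, is that of PH replicate 5.

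Fth1, the ferritin heavy chain, had the lowest unadjusted P of the set between the OVX times, and its POA signal was higher at 4 months than at 14 days. Intact POA libraries had 58685, 55811, 55923, 56040 and 60011. At 14 days they ran from 50725 to 63722 with a median of 55125, and at 4 months from 56456 to 68871 with a median of 63341. At 4 months 5 of 6 libraries exceeded every intact library, and at 14 days 1 did. Against 14 days, the log2 fold change at 4 months was 0.18 (SE 0.06, unadjusted P = 0.00433, adjusted P = 0.734, limma), and it was 0.18 in batch 1 and 0.18 in batch 2. Against intact mice at 4 months it was 0.12 (SE 0.06, unadjusted P = 0.0467, adjusted P = 0.577, limma). Of all POA genes tested between the OVX times, 2.47% were higher and 2.64% lower at 4 months at an unadjusted P under 0.05, and of the 10 iron genes 1 was higher and 0 were lower. The same counts held in the PH, where Fth1 was again the 1 gene and the background shares were 2.08% and 2.01%, but without SV1 the PH count was 0.

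In the PH, Fth1 measured 69912, 57778, 48136 and 55574 in intact libraries, 49371 to 82389 with a median of 54013 at 14 days and 56656 to 68919 with a median of 59061 at 4 months. These groups overlapped in full, and replicate 1 of the intact mice and replicate 5 at 14 days held the highest values of the 3 groups. Against 14 days, the log2 fold change at 4 months was 0.20 (SE 0.09, unadjusted P = 0.0455, adjusted P = 1.00, limma). It was 0.24 in batch 1 and −0.06 in batch 2, the batch of replicate 5, and 0.09 without SV1.

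Ftl1, the ferritin light chain, had an unadjusted P above 0.05 in every comparison (limma). In the PH it measured 6872, 6840, 7211 and 8067 in intact libraries, 2331 to 8871 with a median of 6864 at 14 days, and 5323 to 9446 with a median of 8610 at 4 months. In the POA it measured 7494, 6163, 8556, 8011 and 8522 in intact libraries, 6962 to 9183 with a median of 8126 at 14 days, and 6235 to 9794 with a median of 8258 at 4 months. The 2 lowest PH values, 2331 and 5323, were single libraries far from the rest of their groups. At 4 months in the PH, 4 of 6 libraries exceeded every intact one and 1 was below them all. Log2 fold changes of Ftl1 against intact mice were 0.02 to 0.10, with unadjusted P values from 0.229 to 0.87 (limma). Those of Fth1 were −0.08 (PH) and −0.05 (POA) at 14 days, and 0.12 in both regions at 4 months. Ferritin genes have processed copies in the genome, and reads can be split among them. The table lists 7 such entries, of which Ftl1-ps1 had a median signal of 83.0 and the others lay between 22.1 and 31.3, near the floor. Receptor and heavy chain were also set against each other within each library, as a description. The log2 signal of Tfrc minus that of Fth1 was −3.41 ± 0.24, −3.66 ± 0.27 and −3.94 ± 0.29 (SD) for intact, 14-day and 4-month PH, and −3.53 ± 0.20, −3.77 ± 0.21 and −3.91 ± 0.16 for the same groups of the POA. The ranges overlapped, but the highest 4-month values, −3.55 (PH) and −3.71 (POA), were below the intact means.

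Slc40a1, ferroportin, had a between-library SD of 0.18 (PH) and 0.13 (POA) on the log2 scale. It measured 414, 402, 469 and 451 in intact PH, 437 to 533 with a median of 455 at 14 days, and 365 to 600 with a median of 467 at 4 months. Intact POA libraries had 512, 419, 479, 434 and 469, against 433 to 552 with a median of 501 at 14 days and 395 to 500 with a median of 479 at 4 months. The groups overlapped at every time, and the log2 fold changes against intact mice ran from −0.02 to 0.16 with unadjusted P values from 0.215 to 0.774 (limma).

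Cp, ceruloplasmin, was the most variable of the 10 genes in the POA. Intact PH had 1564, 830, 868 and 1148, with 650 to 1491 and a median of 1203 at 14 days and 912 to 1354 and a median of 1110 at 4 months. Intact POA had 1065, 841, 574, 1168 and 729, with 796 to 1415 and a median of 998 at 14 days. At 4 months in the POA the batches did not overlap: the libraries of batch 1 had 1607, 1750 and 1507 and those of batch 2 had 745, 880 and 913. The 4-month log2 difference from intact mice was 0.40 (SE 0.23, unadjusted P = 0.106, limma), with a difference of 0.77 in batch 1 and 0.10 in batch 2. Across the 33 centred libraries, Cp had an r of 0.80 with the mean of 4 fibroblast markers, a list that ran from 8.20 to 9.08 in intact POA, 8.36 to 9.53 at 14 days and 8.30 to 9.09 at 4 months on the log2 scale. How much meningeal tissue contributed to the Cp values was not tested.

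Hmox1, the inducible heme oxygenase, lay nearest to the floor. It measured 178, 169, 172 and 196 in intact PH, 139 to 235 with a median of 193 at 14 days, and 185 to 250 with a median of 215 at 4 months. In 4 of 6 PH libraries at 4 months it exceeded every intact one, and the log2 fold change was 0.23 (SE 0.12, unadjusted P = 0.0606, limma). Intact POA had 195, 180, 219, 184 and 215, with 171 to 250 and a median of 220 at 14 days and 155 to 241 and a median of 189 at 4 months. At 4 months the POA values lay on both sides of the intact range, with a log2 fold change of −0.04 (SE 0.12).

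Ireb2, which encodes IRP2, measured 5044, 5154, 4638, 4139 and 4279 in intact POA, 3575 to 5208 with a median of 4552 at 14 days, and 3690 to 4923 with a median of 4297 at 4 months. The batches stood apart more than the times did, with 4672 to 5208 in batch 1 and 3575 to 4638 in batch 2. On the log2 scale the POA difference was −0.17 (SE 0.04, unadjusted P = 0.00138, adjusted P = 0.221, limma) at 4 months, and within batches it was −0.08 and −0.18. Without SV1 it was −0.11, and with the replicate number as a block in its place −0.05 (unadjusted P = 0.38, limma). That block sets intact replicate 3, of batch 2, beside OVX replicates 3 of batch 1, so the batch difference enters it. At 14 days the POA difference was −0.11 (SE 0.04, unadjusted P = 0.0272, adjusted P = 0.799, limma), but 0.01 in batch 1 and −0.16 in batch 2. Intact PH had 4802, 5128, 4786 and 4721, with 4253 to 5376 and a median of 4701 at 14 days and 3652 to 4873 and a median of 4353 at 4 months. In the PH 5 of 6 libraries at 4 months were below every intact one, at a log2 fold change of −0.17 (SE 0.08, unadjusted P = 0.0526, limma). Over the 33 centred libraries, Ireb2 had an r of −0.58 with the microglial, −0.54 with the endothelial and −0.49 with the red cell marker list. With the neuronal list it had an r of 0.51. The part of these cells in the Ireb2 values was not tested.

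Aco1 encodes the cytosolic aconitase that becomes IRP1 when it loses its iron-sulfur cluster. In the POA it measured 1466, 1487, 1676, 1523 and 1652 in intact libraries, 1315 to 1491 with a median of 1364 at 14 days and 1231 to 1575 with a median of 1380 at 4 months. At each OVX time 5 of 6 libraries were below every intact one. The log2 fold change was −0.17 (SE 0.06, unadjusted P = 0.0116, adjusted P = 0.799, limma) at 14 days and −0.16 (SE 0.06, unadjusted P = 0.016, adjusted P = 0.443, limma) at 4 months, with batch values of −0.14 and −0.20 and of −0.15 and −0.17. Intact PH had 1198, 1373, 1576 and 1545, with 865 to 1586 and a median of 1398 at 14 days and 1302 to 1472 and a median of 1378 at 4 months. There the groups overlapped in full at 4 months, with log2 fold changes of 0.03 (SE 0.08) and −0.06 (SE 0.07).

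Whether the regions responded differently was tested as an interaction over all 33 libraries, with PH and POA libraries treated as independent. Since the labels do not say if some came from the same mouse, the SE and P values here do not account for it. None of the 10 genes passed an adjusted P under 0.05, and 0 passed an unadjusted P under 0.05, at either time (limma). Of all genes tested, 0.00452% and 0.00905% passed the adjusted P at 14 days and 4 months, and 2.99% and 3.61% the unadjusted one. For Tfrc the PH response minus the POA response was −0.01 at 14 days (2 SE either way, −0.28 to 0.27) and −0.12 at 4 months (−0.40 to 0.15). The Aco1 difference, which was seen in the POA, was 0.14 (SE 0.10, unadjusted P = 0.187, limma) at 14 days. The smallest unadjusted P was that of Hmox1 at 4 months (0.27, SE 0.16, unadjusted P = 0.104, limma).

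**Figure D3:**
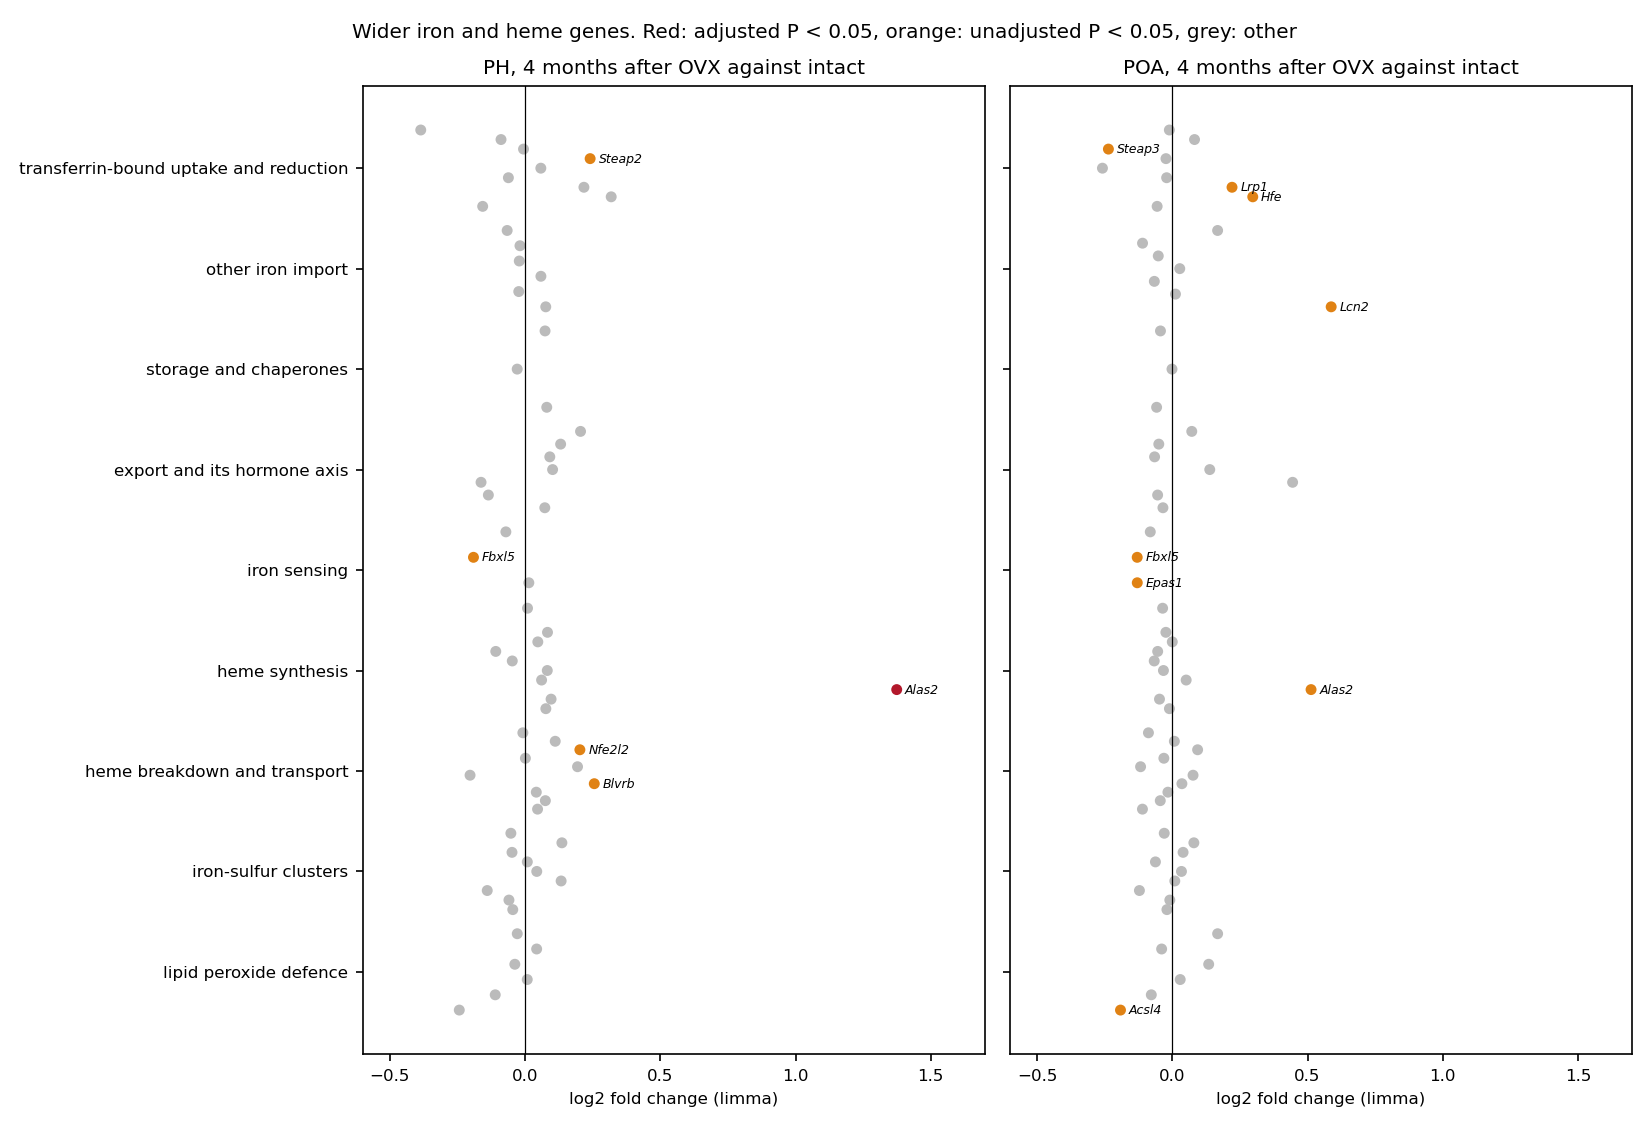
Log2 fold change (limma) at 4 months after OVX against intact mice of the tested genes of 9 wider iron and heme lists, PH on the left and POA on the right, with 1 point per gene. Alas2 in the PH (1.37) is the only gene with an adjusted P under 0.05 (red), and most of the others lie near 0.

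The 70 further iron and heme genes, in 9 lists by role, included 63 (PH) and 64 (POA) that passed the filter. One gene passed an adjusted P under 0.05, in 1 comparison. Alas2, the erythroid enzyme that starts heme synthesis, rose in the PH at 4 months. Its mean signal was 147 in intact libraries and 392 at 4 months, with a log2 fold change of 1.37 (SE 0.22, unadjusted P = 8.23e-06, adjusted P = 0.0301, limma). The adjusted P was above 0.05 without intact replicate 2, 3 or 4 or 4-month replicate 4 or 5 (0.0702 to 0.209), while the log2 fold change stayed at 1.19 or more as single libraries were left out. The other values of Alas2 were 0.51 (SE 0.23, unadjusted P = 0.041) in the PH at 14 days, 0.87 (SE 0.21, unadjusted P = 6.66e-04) between the PH times, 0.51 (SE 0.16, unadjusted P = 0.00554) in the POA at 4 months, 0.16 (SE 0.16, unadjusted P = 0.351) in the POA at 14 days and 0.36 (SE 0.16, unadjusted P = 0.0329) between the POA times, with adjusted P values from 0.347 to 1.00 (limma). Alas2 is also 1 of the 6 red cell markers, all of which were higher at 4 months at an unadjusted P under 0.05 (limma) in both regions. Of all genes tested, 2.95% (PH) and 4.1% (POA) were. Slc4a1, 1 of the 6, had a median signal of 43.6 and reached 2 times the floor in 16 of 33 libraries. The median log2 fold change of the list was 1.36 in PH libraries, next to 1.37 for Alas2 itself, and 0.85 in POA libraries. The mean log2 signal of that list was 8.76 to 9.21 in intact PH, 9.06 to 9.80 at 14 days and 9.73 to 11.26 at 4 months. In POA libraries it was 8.98 to 9.97, 9.20 to 10.01 and 9.39 to 10.47. The part of blood in the dissected tissue was not tested. The other 8 genes of heme synthesis, which all cells use, had 0 with an unadjusted P under 0.05 in the comparisons with intact mice.

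At an unadjusted P under 0.05, the wider lists had 1 gene higher and 0 lower in the PH at 14 days, 4 and 1 at 4 months, 2 and 1 in the POA at 14 days, and 4 and 4 at 4 months. Between OVX times these counts were 2 and 0 (PH) and 1 and 2 (POA). At 4 months this is 4 and 1 of 63 PH genes, where 2.95% and 3.11% of all genes were higher and lower, and 4 and 4 of 64 POA genes, where 4.1% and 4.41% were. At 14 days the shares of all genes were 1.56% and 1.48% (PH) and 2.84% and 3.3% (POA), and between the times 2.08% and 2.01% (PH) and 2.47% and 2.64% (POA). By unadjusted P the leading genes after Alas2 in the PH were Steap4 (−0.33, SE 0.16), a metalloreductase, and Ppox (−0.19, SE 0.09), of heme synthesis, at 14 days, with unadjusted P values of 0.0522 and 0.0559. That of Steap4 was −0.21 without replicate 3 at 14 days and −0.11 with a pseudocount of 100, and that of Ppox was −0.31 without SV1. At 4 months they were Steap2 (0.24, SE 0.08, unadjusted P = 0.0107), also a metalloreductase, and Fbxl5 (−0.19, SE 0.07, unadjusted P = 0.0111), the iron-sensing subunit of the ligase that marks IRP2 for degradation. Against 14 days, the 4-month values of Steap2 and Fbxl5 were 0.18 (SE 0.08, −0.02 in batch 2, 0.03 without SV1) and −0.12 (SE 0.06). None of these passed an adjusted P under 0.05 (limma).

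In the POA, the leading genes at 14 days were Flvcr1, a heme exporter (0.16, SE 0.07, unadjusted P = 0.0253), Lcn2, a siderophore binder that lay near the floor (0.46, SE 0.20, unadjusted P = 0.0344), and App, which stabilizes ferroportin (−0.09, SE 0.04, unadjusted P = 0.049). At 4 months they were Acsl4, a lipid-activating enzyme of lipid peroxidation (−0.19, SE 0.06, unadjusted P = 0.00245, but −0.10 without SV1 and −0.02 with the replicate number as a block in its place), Alas2 and Lcn2 (0.59, SE 0.20, unadjusted P = 0.00924). With a pseudocount of 100 the Lcn2 values were 0.10 and 0.14. Between the times they were Steap3, the reductase that works beside the transferrin receptor in the endosome (−0.28, SE 0.09, unadjusted P = 0.00733), Acsl4 (−0.12, SE 0.05, 0.04 in batch 2) and Alas2. Their adjusted P values were 0.289 to 0.964 (limma). Fbxl5 was again lower in the POA at 4 months (−0.13, SE 0.05, unadjusted P = 0.0103, limma).

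Among themselves, the 10 genes varied in a few pairs. Over the 33 libraries, centred on region and batch, Trf and Fth1 had an r of 0.69 (PH 0.69, POA 0.69), Tfrc and Ireb2 0.64 (0.72 and 0.51) and Ftl1 and Hmox1 0.62 (0.70 and 0.70). Without PH replicate 5 at 14 days these were 0.60, 0.63 and 0.48. Other pairs rested on that library. For Ftl1 and Aco1 r was 0.69 with it and 0.08 without it, for Slc11a2 and Aco1 0.68 and 0.23, and for Slc11a2 and Ftl1 0.60 and −0.15. In that library Ftl1 was at 2331, Aco1 at 865, Slc11a2 at 869 and Hmox1 at 139, each the lowest of the PH, and Fth1 at 82389, the highest. These libraries share groups and normalization, and the values are a description.

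The 2 protein-coding genes whose log2 signal was most like that of each iron gene, of 16139, were named by the same centred Pearson r over 33 libraries. They were Bzw1 (0.79) and Gm49336 (0.76) for Tfrc, Serpinb1a (0.74) and Evi2a (0.73) for Trf, and Tm7sf2 (0.90) and Brat1 (0.89) for Slc11a2. Fth1 was nearest to Mobp, a myelin gene (0.81; PH 0.78, POA 0.90), and Idh3g (0.79), and Ftl1 to Ctsd, a lysosomal protease (0.97), and Atox1, a copper chaperone (0.96). With the whole list of oligodendrocyte markers, Mobp among them, Fth1 had an r of 0.34 (PH 0.19, POA 0.58), and of 0.42 without PH replicate 5 at 14 days. Slc40a1 was nearest to Myh4 and Ggt5 (both 0.67), Cp to Ogn and Dcn (both 0.83), proteoglycans of connective tissue, and Hmox1 to Dhrs7 (0.76) and Ucp2 (0.72). Ireb2 was nearest to Pgr, the progesterone receptor (0.86; PH 0.89, POA 0.82), and Armcx3 (0.84), and Aco1 to Sema4d and Cs, citrate synthase (both 0.91). Without PH replicate 5 at 14 days these fell to 0.90 and 0.87 for Ftl1, 0.76 and 0.71 for Slc11a2, 0.78 and 0.76 for Aco1, 0.68 and 0.66 for Trf, 0.67 and 0.63 for Hmox1 and 0.70 for Fth1 with Idh3g, and that of Ireb2 and Pgr was 0.86. Over all 33 libraries, the 99th percentile of r among these protein-coding genes ran from 0.41 (Slc40a1) to 0.90 (Ftl1). It was 0.82 for Aco1 and 0.81 for Slc11a2, so many other genes had like values.

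**Figure D4:**
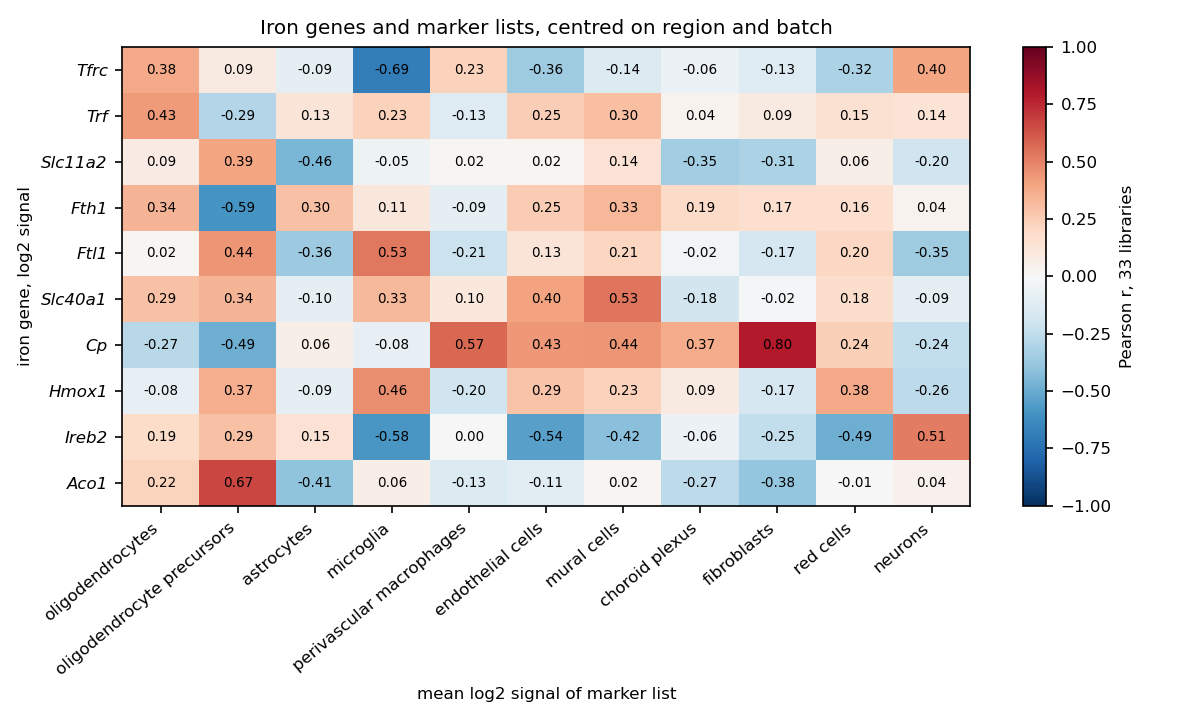
Pearson r over 33 libraries between the log2 signal of each iron gene (rows) and the mean log2 signal of each cell type marker list (columns), both centred on region and batch, on a color scale from −1 (blue) to 1 (red). Cp with fibroblasts (0.80) is the highest and Tfrc with microglia (−0.69) the lowest value. Without PH replicate 5 at 14 days these were 0.79 and −0.68, and Aco1 with oligodendrocyte precursors was 0.49 in place of 0.67.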

How the data were processed

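Bulk RNA-seq of PH and POA was analyzed from 1 deposited table of normalized signal. Per the labels and methods, the authors extracted RNA from frozen tissue, made stranded poly(A) libraries, pseudoaligned reads with kallisto (mm39, GENCODE M30) and used tximport, DESeq2 and a smartSVA surrogate variable. The deposited signal is linear, decimal and not a count, and the step that made it is not given in the sources used here. A count test had been planned and was replaced. Log2 values without a pseudocount were fitted with limma 3.58.1 (R 4.3.3; trend and robust variances) with SV1 on the 3 groups of each region, estimated with 5 reweighting rounds in base R. Genes were tested at 2 times the floor in at least 4 PH or 5 POA libraries (21966 and 21339 genes; 22108 for the interaction). The 1259 unnamed entries were left out. Adjusted P values (Benjamini-Hochberg) cover every tested gene, with a threshold of 0.05. The fit was tested on simulated data.

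The 10 genes and all lists were chosen with earlier results of these data known. All 10 are described, with full statistics where the unadjusted P was under 0.05 or the text needs them. From the wider lists, genes with an adjusted P under 0.05 and the 3 smallest P values per comparison are named, and Fbxl5 in the POA was added after its value was seen. Comparisons were also run without SV1, with batch in its place or beside it, with the replicate number as a block, on 2 groups, with a pseudocount of 100, without the filter, with library centring, without trend and robust variances, in single batches and without each library. Other tools were Python 3.11.15, numpy 2.4.6, pandas 2.3.3 and matplotlib 3.10.9.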

Additional observations from a re-analysis of the deposited data

Results flagged for a closer look

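Of 60 groups of libraries (10 genes, 6 groups), 5 had 1 library farther from the others than Dixon's criterion allows, where chance gives about 1 in 20. Replicate 5 of the PH at 14 days accounts for 3 of them, with Fth1 at 82389 (the other 5 libraries lay between 49371 and 58535), Ftl1 at 2331 (6189 to 8871) and Aco1 at 865 (1370 to 1586). In the PH at 4 months, Ftl1 was at 5323 in replicate 3 (8043 to 9446), which is also the library with the highest Tfrc of its group. In the PH at 14 days, Cp was at 650 in replicate 4 (1156 to 1491). The cause of these values was not tested.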

How the results depend on the processing

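Of 1102 values recomputed under an alternative, 1085 kept their direction and their side of the threshold. Only Alas2 in the PH at 4 months was called in the main fit, and it kept its call in 17 of 27 alternatives. The total therefore counts mostly values that had no call to lose. The count of iron genes called, 0 in each of the 8 comparisons, stayed at 0 under every alternative, except that leaving out single libraries gave 0 to 1 in the PH at 4 months against intact mice, where 1 is Tfrc without replicate 3 at 4 months. A direction turned in 5 values. These are, on the log2 scale, Ireb2 in the POA at 14 days with the replicate block (0.00267) and in batch 1 alone (0.0145), and, in batch 2 alone, Fth1 (−0.0584) and Steap2 (−0.0241) between the OVX times in the PH and Acsl4 (0.0433) between those in the POA. With the replicate block, which took the place of SV1, Tfrc against intact mice was −0.19 (14 days) and −0.38 (4 months) for the PH and −0.24 and −0.20 for the POA, and no call changed. The unadjusted P of Tfrc was then 0.183 (PH, 14 days) and 0.055 (POA, 4 months, limma), so that it stayed under 0.05 in 2 of the 4 comparisons. Replicate 3 is in batch 2 among intact and in batch 1 among OVX libraries, so the block within a region crosses the batches there. Same-numbered libraries deviated together with correlations from −0.18 to 0.39 (PH, median 0.15) and −0.31 to 0.39 (POA, median 0.26), against medians of −0.05 and −0.15 for other numbers, while a PH and a POA library of 1 group had a median of 0.23 with the same number and −0.06 with another. Since not every pair was over 0.1, the numbers were not treated as pairs. The deviations were centred on group and not on batch, and most same-numbered libraries share a batch. The medians therefore cannot tell batch from another link between same-numbered libraries. Of 855 values of named genes, 56 moved by over 1.5 times, 2 of them when a library was left out (Steap4 and Trf). Alas2 in the PH at 4 months lost its call with a pseudocount of 100 (adjusted P = 0.0601, limma), without the filter (0.135), without trend and robust variances (0.066) and in either batch alone (0.832 and 1.00). The cause was not tested. The read depth is unknown, so counting error could not be given, and 4 to 6 libraries per group limit the precision.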
